A study of Mus musculus with 21 samples.

Results

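A set of 9 receptor genes that direct plasma cells into the gut wall or hold them there was followed in IgA+ plasma cells (IgA+ PCs) of the small intestine. They were found by gene name in a count table of 53801 genes: 9 of 9 were present (Ccr9, Ccr10, Ccr7, Cxcr3, Cxcr4, S1pr1, Itga4, Itgb7 and Itgb1), and all 9 passed the filter of at least 10 counts in total. CD138+ IgA+ cells were sort-purified from the small intestinal lamina propria of 21 C57BL/6 mice, 1 mouse per library, at Zeitgeber time (ZT, hours from lights on) 0 or 12. Control mice (Mb1Cre-/- x Arntlfl/fl) numbered 6 at ZT0 and 6 at ZT12, and knockout mice (Mb1Cre+/- x Arntlfl/fl) numbered 4 at ZT0 and 5 at ZT12. Both genotypes carry floxed Arntl, the gene of the clock protein Bmal1. Cre is expressed from Mb1, which is the gene Cd79a, so that deletion takes place in the whole B cell lineage and not in plasma cells alone.

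Lymphocytes reach a tissue in steps: a chemokine receptor senses its ligand on the vessel wall, the G protein signal activates integrins, and the integrin binds its ligand and arrests the cell. In the gut, CCR9 reads CCL25 of the small intestinal epithelium, CCR10 reads CCL28 of mucosal epithelia, and the integrin alpha4beta7 binds MAdCAM-1 on intestinal venules. CXCR4 and its ligand CXCL12 hold plasma cells in stromal niches, CXCR3 guides cells to sites with interferon-induced chemokines, and CCR7 and S1PR1 steer cells towards lymph nodes and out of tissue into lymph and blood.

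The libraries held between 14471018 and 22785835 counts on genes. Titles gave the genotype of each sample, because 8 of the 9 samples titled as knockouts carry the control genotype in their genotype field. Cd79a, into which Cre is inserted, lay between 163 and 276 CPM in the knockout mice and between 386 and 586 CPM in the control mice, without overlap. Arntl transcript was at 6.83 to 8.36 CPM in control mice and 4.08 to 6.47 CPM in knockout mice at ZT0. The 6.47 CPM was that of knockout ZT0 replicate 3, and the other knockout mice of that time had 4.08 to 4.51 CPM. At ZT12 the ranges of 4.00 to 5.56 CPM in control mice and 3.11 to 4.93 CPM in knockout mice overlapped. Igha (235000 to 518000 CPM) and Jchain (37500 to 69800 CPM) were abundant in every library. Of the marker lists for other cells, the summed level was 10.8 to 28.5 CPM for T cells, 14.6 to 100 CPM for myeloid cells, 24.0 to 46.9 CPM for stromal and endothelial cells, 117 to 158 CPM for other B cells and 53.0 to 957 CPM for epithelial cells, with control ZT12 replicate 5 highest in the last. Of these markers Pdgfra alone was at 0 in every mouse of a group, in control mice at ZT12 and knockout mice at ZT0. Single genes made up most of the stromal and endothelial, other B cell and T cell sums. Their means over all mice were 33.4 CPM for Pecam1, 114 CPM for Cd79b and 15.6 CPM for Cd4. These sums are thus no measure of the share of such cells. Knockout ZT0 replicate 3 stood apart, as it carried both Xist (428 CPM) and the Y-linked gene Ddx3y (20.7 CPM), and fold changes over time in knockout mice are also given without it. Knockout ZT12 replicate 5 carried Xist at 344 CPM with Ddx3y at 2.23 CPM, and changes over time in knockout mice that moved by more than 0.1 on the log2 scale without it are given so too. In bulk RNA, fewer cells with a transcript and less transcript per cell cannot be told apart.

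The deposited columns come in 3 runs of 7 libraries, each run holding all 4 groups. No source used here says whether a run is a separate experiment, so differences within each run are given for Cxcr4, Cxcr3, Ccr10 and Itgb7. In order, the runs held 3, 2 and 1 control mice at ZT0 and 2, 2 and 2 at ZT12. They held 1, 2 and 1 knockout mice at ZT0 and 1, 1 and 3 at ZT12. Every within-run difference in knockout mice thus rests on a single mouse at 1 or both times, as does that of control mice in the third run at ZT0.

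Levels of the 9 transcripts were first set side by side per length. On the scale of CPM per kilobase (counts scaled to library size with edgeR's TMM factors, then divided by the gene length in the table), Ccr10 had a mean of 99.1 and Itgb7 one of 92.3, followed by Itga4 at 24.4, Cxcr4 at 16 and Ccr9 at 10.9. Itgb1 had 6.24 CPM per kilobase, Cxcr3 2.40, Ccr7 1.69 and S1pr1 0.970. In this order, Itgb7 and Itga4 were apart in all mice, while every other pair of neighbours overlapped over the mice. The length used matters most for Ccr9, since its longest coding transcript in GENCODE M21 is 5197 bases against 10260 in the table, and with that transcript its mean was 21.5, above the 16 of Cxcr4. The beta7 chain was 10.6 to 23 times more abundant per length than the beta1 chain, the other partner of alpha4 (median 15.4, n = 21, or 15.5 without knockout ZT0 replicate 3), whereas Itga4 stood at 0.103 to 0.335 of Itgb7 (median 0.277). The Ccr9 to Ccr10 ratio was 0.058 to 0.173, with a median of 0.110, or 0.114 without that mouse. These ratios use the same gene length as the order above. Per length of the longest coding transcript, the means were 34.9 for Itga4 beside 95.2 for Itgb7, and 21.5 for Ccr9 beside 99.1 for Ccr10. On that scale the Itga4 to Itgb7 and Ccr9 to Ccr10 ratios would be higher.

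**Figure D1:**
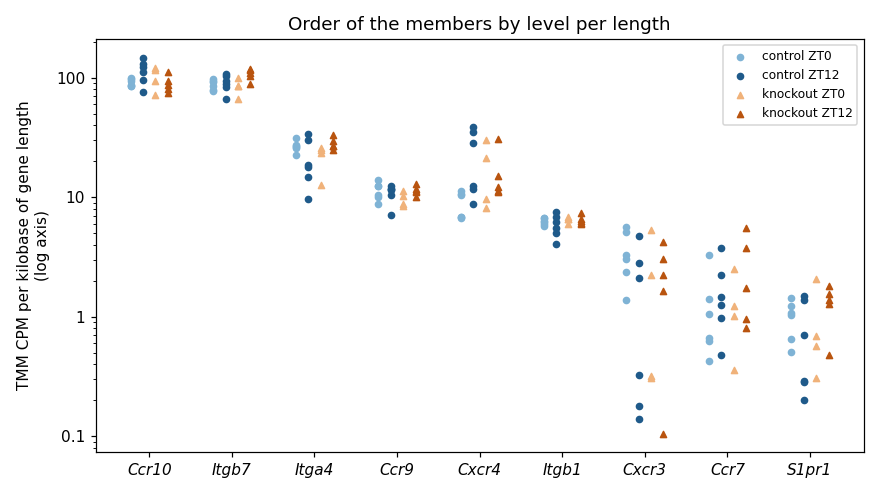
Levels of the 9 receptor transcripts in CPM per kilobase of gene length (vertical log axis), ordered by median, with 1 point per mouse and colour and shape for the 4 groups. Ccr10 and Itgb7 lie at the top, with means of 99.1 and 92.3, and S1pr1 at the bottom with 0.970.

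How steady these levels were differed among the members. Between the lowest and the highest of the 21 mice, Itgb7 differed 1.80-fold, Itgb1 1.86-fold, Ccr9 1.98-fold and Ccr10 2.05-fold, Itga4 3.48-fold, Cxcr4 5.77-fold, S1pr1 10.3-fold, Ccr7 15.7-fold and Cxcr3 53.0-fold. The SD of log2 CPM was 0.19 for Itgb1, 0.23 for Ccr9 and Itgb7 and 0.28 for Ccr10, against a median of 0.285 over the 11635 genes with a mean of at least 1 CPM. For Cxcr4 it was 0.81, for S1pr1 0.93, for Ccr7 1.04 and for Cxcr3 1.69, which places these 4 at the 92.7th to 98.4th percentile of those genes. The 3 lowest of the 9 rest on few reads: 3 to 184 counts per mouse for Cxcr3, 11 to 171 for Ccr7 and 10 to 126 for S1pr1.

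**Figure D2:**
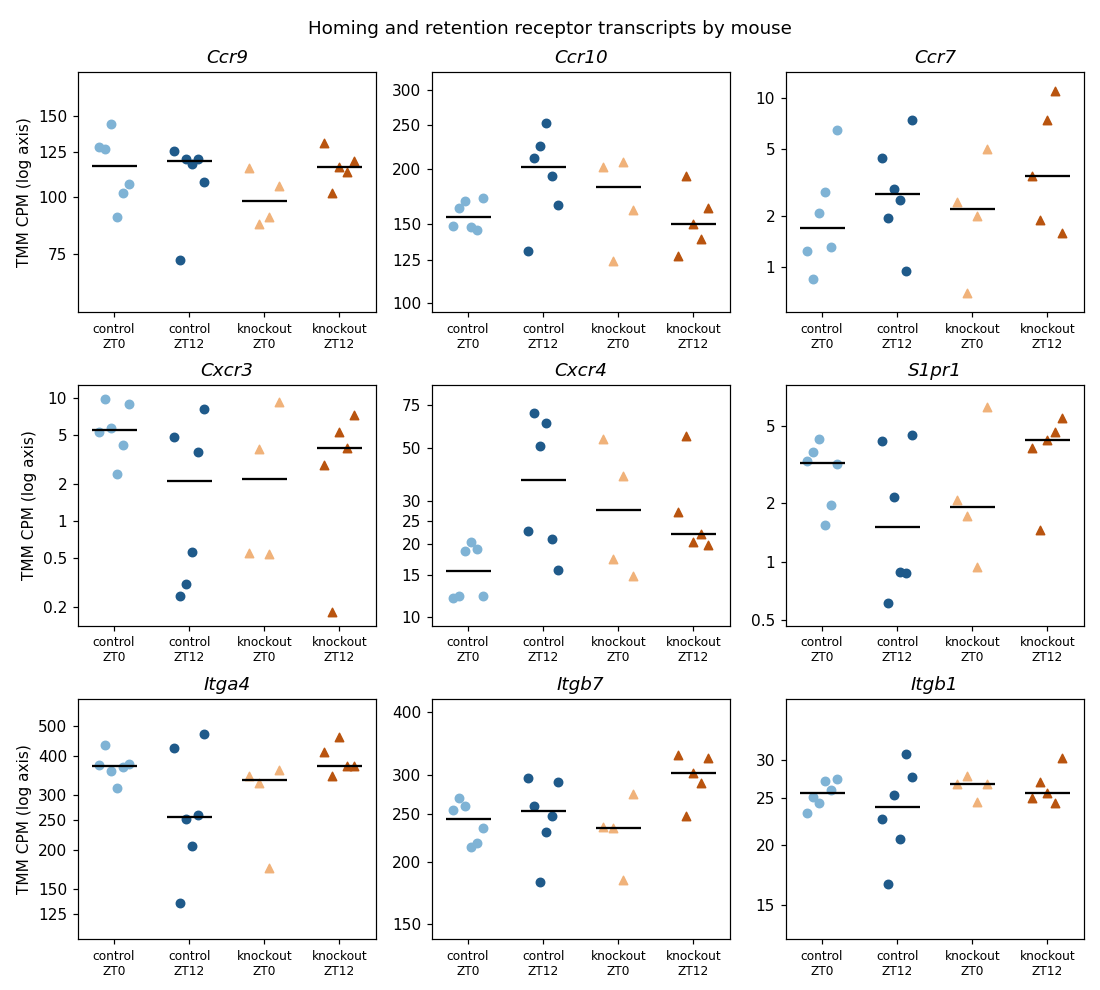
TMM-normalised CPM (log axis, scaled separately in each panel) of the 9 receptor transcripts, with 1 point per mouse in each of the 4 groups and a bar at the group median. The points of Ccr10 range from 124 to 254 CPM, and those of Cxcr3 range from 0.183 to 9.68 CPM.

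To ask whether time of day, genotype or both moved these receptors, all 20256 genes were tested in a single edgeR fit. None of the 9 was called in any of the 5 comparisons (edgeR quasi-likelihood test, Benjamini-Hochberg adjusted p under 0.05 over all genes), nor did any of the 9 separate 2 groups without overlap. DESeq2 called 1 of the 9, Cxcr4 in control mice, where it called 1073 genes in all against 350 called by edgeR. The shares that follow are those of edgeR. In the control mice, between ZT12 and ZT0, 1.73% of all genes were called, 18.1% had an unadjusted p under 0.05 and 1.6% had groups that did not overlap. In the knockout mice these shares were 0% called, 8.01% and 2.63%. In the interaction, the knockout change over time minus the control change, they were 0% called and 10.8% at an unadjusted p under 0.05. Between the genotypes at ZT0 0.00987% were called, 4.9% had an unadjusted p under 0.05 and 0.977% did not overlap, and at ZT12 the shares were 0.0148%, 8.83% and 0.38%. An unadjusted p under 0.05 was found for 2 of the 9 receptors over time in control mice, 1 in knockout mice, 2 in the interaction, 1 between genotypes at ZT0 and 2 at ZT12. Their median log2 fold change from ZT0 to ZT12 was -0.07 in control mice, beside 0.01 over all genes, and 0.22 in knockout mice, beside 0.01 over all genes. Between genotypes, knockout minus control, it was -0.06 at ZT0 and 0.25 at ZT12, beside -0.01 over all genes at both times. Without knockout ZT0 replicate 3 the median was 0.18 over time in knockout mice, and between genotypes at ZT0 it turned to 0.04.

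**Figure D3:**
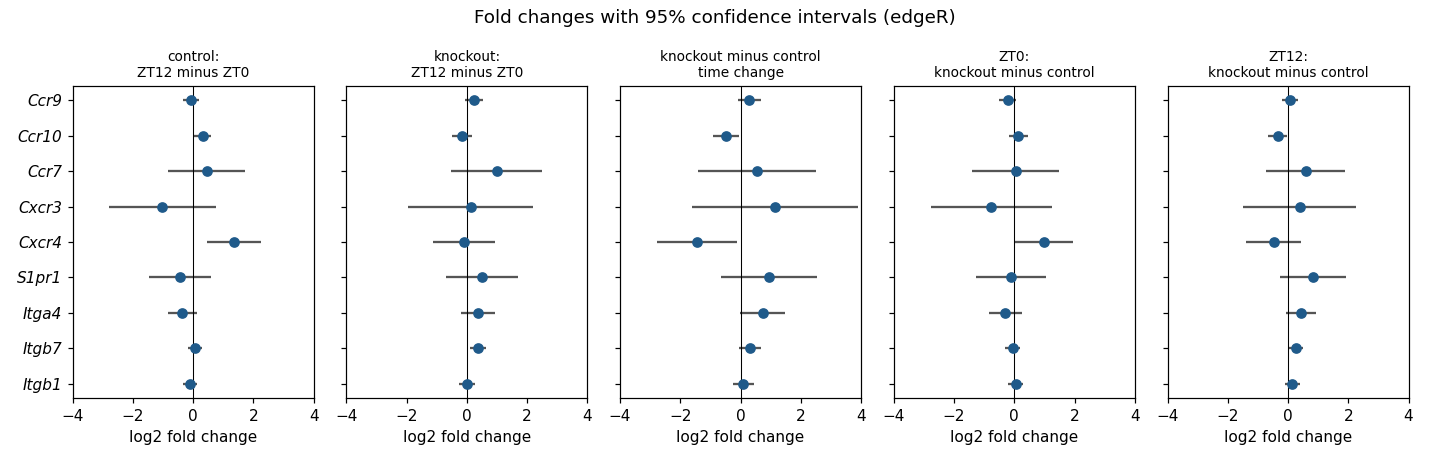
Log2 fold change (point) with its 95% confidence interval (line) from the edgeR fit for each of the 9 receptors in the 5 comparisons, the vertical line marking no change. The Cxcr4 interval of 0.46 to 2.25 in control mice lies to the right of 0, and the widest intervals are those of Cxcr3.

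Cxcr4, the CXCL12 receptor, had the largest fold change of the 9 in control mice. Its level at ZT0 was 12.0, 12.3, 12.3, 18.8, 19.2 and 20.3 CPM, and at ZT12 it was 15.7, 21.1, 22.6, 51.0, 63.2 and 69.3 CPM. All ZT12 mice but 1 were above all ZT0 mice, and the 3 highest stood well apart from the other 3. The log2 fold change was 1.36 with an SE of 0.42 (95% interval 0.46 to 2.25), and edgeR gave an unadjusted p of 0.00516 and an adjusted p of 0.114. DESeq2 on the same counts called it, at a log2 fold change of 1.39 and an adjusted p of 0.0178. A fit with the run of columns as a term, chosen after seeing the data, also called it (1.38 ± 0.32 SE, edgeR adjusted p = 0.0324). With single mice left out the edgeR adjusted p ran from 0.0525 to 0.241. Within each run the ZT12 control mice were above the ZT0 ones: 22.6 to 69.3 against 12.0 to 18.8 CPM in the first, 51.0 to 63.2 against 19.2 to 20.3 in the second and 15.7 to 21.1 against 12.3 in the third.

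In the knockout mice the Cxcr4 levels at ZT0 were 14.8, 17.3, 38.1 and 54.2 CPM, and at ZT12 they were 19.8, 20.4, 22.0, 27.2 and 55.9 CPM. Both times held mice at either end and their ranges overlapped almost wholly. The log2 fold change was -0.10 with an SE of 0.48 (95% interval -1.11 to 0.92, edgeR adjusted p = 0.979). Without knockout ZT0 replicate 3 it was 0.02, without knockout ZT12 replicate 5 it was 0.0003, and with the run of columns as a term it was 0.27. The difference of mean log2 CPM between the times was -0.99 in the first run, 1.12 in the second and 0.49 in the third. Each of these values rests on a single mouse at 1 or both times. The difference between the genotypes in this change was -1.45 with an SE of 0.64 (95% interval -2.79 to -0.11, edgeR unadjusted p = 0.0355, adjusted p = 0.451), and -1.34 without that replicate. At ZT0 Cxcr4 was 0.98 higher in knockout mice on the log2 scale (SE 0.46, edgeR adjusted p = 0.926), with the values of 2 of the 4 knockout mice above all 6 controls, and without replicate 3 the difference was 0.87. At ZT12 it was -0.47 with an SE of 0.44 (edgeR adjusted p = 0.765).

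Lists of other transcripts were set beside Cxcr4 in the same mice. The summed level of 10 genes induced by tissue dissociation, among them Fosb (1530 to 4480 CPM) and Jun (226 to 1730 CPM), was 2620 to 6480 CPM at ZT0 in control mice, and at ZT12 it was 2670 to 8310 CPM. In knockout mice the sums were 3010 to 8940 CPM and 2490 to 4770 CPM. No gene of that list was at 0 in every mouse of a group. In knockout mice its genes ran both ways from ZT0 to ZT12, with log2 fold changes from -1.30 for Egr1 to 3.09 for Hspa1b and 0 called. A covariate was made from the mean log2 CPM of the 10 genes, which is another measure than their sum. With it, an alternative chosen after seeing the data, the Cxcr4 change in control mice was 0.79 with an SE of 0.41 (edgeR adjusted p = 0.573). The 4 highest dissociation sums, 6540 to 8940 CPM, belonged to control ZT12 replicates 2, 3 and 4 and knockout ZT0 replicate 3. These 4 mice had 38.1 to 69.3 CPM of Cxcr4. Next came control ZT0 replicate 4 and control ZT12 replicate 5, with sums of 6480 and 6420 CPM but 20.3 and 21.1 CPM of Cxcr4. Knockout ZT0 replicate 1 and knockout ZT12 replicate 2 had 54.2 and 55.9 CPM of Cxcr4 with sums of 4620 and 4770 CPM. In control mice the median log2 fold change of the 10 genes from ZT0 to ZT12 was 0.83, so the covariate itself shifts with time of day. The fit with it cannot tell a dissociation response apart from time of day, and the part of this response in the Cxcr4 levels was not tested. The summed epithelial markers were at 53.0 to 194 CPM in control mice at ZT0 and 69.8 to 957 CPM at ZT12, and their part was not tested. Immunoglobulin genes took 51.5% to 53.4% of the counts of control mice at ZT0 and 53.4% to 63.6% at ZT12, and with these genes removed the Cxcr4 change was 1.36.

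Cxcr3, the receptor for interferon-induced chemokines, had levels opposite to those of Cxcr4. In control mice at ZT0 the lowest, median and highest values were 2.41, 5.47 and 9.68 CPM. At ZT12 they were 0.243, 2.10 and 8.13 CPM, with 3 mice at 0.243, 0.307 and 0.561 CPM and the other 3 at 3.63, 4.83 and 8.13 CPM. The knockout mice at ZT0 had 0.534, 0.550, 3.83 and 9.15 CPM, and at ZT12 0.183, 2.84, 3.86, 5.25 and 7.27 CPM. No mouse lay between 0.561 and 2.41 CPM. The 6 mice below this gap, which were control ZT12 replicates 2, 3 and 4, knockout ZT0 replicates 1 and 3 and knockout ZT12 replicate 2, also had the 6 highest Cxcr4 levels, 38.1 to 69.3 CPM, against 12.0 to 27.2 CPM in the other 15 mice. None of the 6 control ZT0 mice was among them. Each of the first 2 runs of columns held some of these mice and the third run held none, and both Xist-high and Ddx3y-high mice were among them.

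**Figure D4:**
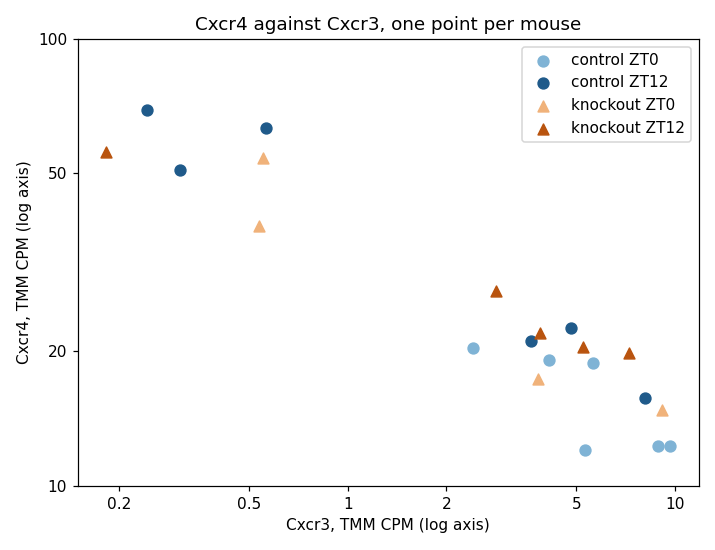
Cxcr4 against Cxcr3 in TMM-normalised CPM (both axes log), with 1 point per mouse and colour and shape for the 4 groups. The 6 mice with Cxcr3 at 0.561 CPM or lower hold the 6 highest Cxcr4 levels, 38.1 CPM or more, and no mouse lies between 0.561 and 2.41 CPM of Cxcr3.

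The mean differences of Cxcr3 were small beside this spread. In control mice the log2 fold change from ZT0 to ZT12 was -1.02 with an SE of 0.85 (95% interval -2.80 to 0.77, edgeR adjusted p = 0.56), and in knockout mice it was 0.13 with an SE of 0.98 (edgeR adjusted p = 0.989), or -0.22 without knockout ZT0 replicate 3, -0.24 without knockout ZT12 replicate 5 and 1.24 without knockout ZT0 replicate 4. Leaving out control mice moved the control value between -1.62 (without ZT12 replicate 6) and -0.77 (without ZT12 replicate 2). Within the 3 runs of columns the control differences of mean log2 CPM were -2.33, -2.60 and -0.70 and those of the knockout mice 2.14, -2.41 and -0.78. The knockout values each rest on a single mouse at 1 or both times. The genotypes differed by -0.76 at ZT0 with an SE of 0.95, or -0.41 without knockout ZT0 replicate 1, also -0.41 without replicate 3 and -1.88 without replicate 4. At ZT12 they differed by 0.38 with an SE of 0.89, and single mice left out moved this between 0.02 (without knockout ZT12 replicate 5) and 0.98 (without control ZT12 replicate 6).

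Cxcr4 and Cxcr3 are shown with the sequence before their start, since these 2 receptors ran opposite to each other. Promoters of 6 of the 9 members were found in the RefSeq table (GRCm38.p6). Each window holds the 250 bases before RefSeq's start of the gene. That of Cxcr4 (chr1:128592300-128592549, minus strand) lies wholly before the gene in GENCODE M21. That of Cxcr3 (chrX:101734148-101734397, minus strand) has 122 bases inside the GENCODE gene, so that only the 128 bases before it (chrX:101734270-101734397) are shown, and the whole window of Ccr9 and 9 bases of that of Itgb7 lie inside their GENCODE genes too. Sequences are printed 5′ to 3′, with matches to the motifs searched in capitals.
Cxcr4: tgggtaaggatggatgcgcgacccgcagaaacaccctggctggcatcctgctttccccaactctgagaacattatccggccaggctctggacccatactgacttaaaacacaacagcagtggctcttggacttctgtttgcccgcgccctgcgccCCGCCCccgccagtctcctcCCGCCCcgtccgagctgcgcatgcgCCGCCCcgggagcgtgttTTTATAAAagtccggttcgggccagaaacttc
Cxcr3: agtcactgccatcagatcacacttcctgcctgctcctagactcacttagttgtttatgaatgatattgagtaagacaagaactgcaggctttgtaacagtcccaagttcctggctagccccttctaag
Searched on both strands were the E-box CACGTG, the AP-1 site TGANTCA, the T-box site AGGTGTGA, the cyclic AMP element TGACGTCA, the TATA box TATAAA and the GC box GGGCGG. These occurred in 6.02%, 6.75%, 1.12%, 1.55%, 12.4% and 32.7% of the 32851 promoter windows of that length. The Cxcr4 window held 2 overlapping TATA box matches, one on each strand, from base -32 to -25 before the start, and 3 GC box matches, and the whole Cxcr3 window held no match to any of the 6. The Itga4 and Itgb1 windows each held 1 GC box and no other match, and those of Ccr9 and Itgb7 held none. No E-box match lay in any of the 6 windows.

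Ccr10 and Ccr9, the mucosal homing receptors, were steadier. Ccr10 ranged from 146 to 172 CPM in control mice at ZT0 (median 156) and from 130 to 254 CPM at ZT12 (median 202). At ZT12 all but 2 control mice exceeded every ZT0 mouse, but replicate 1 was the lowest of all 12 control mice. The log2 fold change was 0.32 with an SE of 0.14 (95% interval 0.03 to 0.60, edgeR unadjusted p = 0.0301, adjusted p = 0.222), and within the 3 runs of columns the difference of mean log2 CPM was 0.06, 0.70 and 0.06. In knockout mice the values were 124, 162, 202 and 206 CPM at ZT0, against 128, 139, 150, 163 and 192 CPM at ZT12, a log2 fold change of -0.17 with an SE of 0.16, or -0.08 without knockout ZT0 replicate 3. The change over time differed between the genotypes by -0.49 with an SE of 0.21 (edgeR unadjusted p = 0.0295, adjusted p = 0.445), and by -0.39 without that replicate. At ZT12 Ccr10 differed by -0.35 between knockout and control mice (SE 0.15, edgeR adjusted p = 0.562). Its gene overlaps Cntnap1 on the other strand, with 0 exon bases in common.

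Ccr9 had 90.4 to 144 CPM in control mice at ZT0 (median 117) and 72.9 to 126 CPM at ZT12 (median 120). Its level was 87.2, 90.5, 106 and 116 CPM in knockout mice at ZT0 and 102, 113, 116, 120 and 131 CPM at ZT12. The groups overlapped, with log2 fold changes over time of -0.07 (95% interval -0.32 to 0.19) in control and 0.22 (95% interval -0.07 to 0.52) in knockout mice, or 0.18 without knockout ZT0 replicate 3. Of the 10260 exon bases of Ccr9, 1932 overlap an antisense transcript and 269 are shared with Gm17200 on the same strand. These had 475 and 489 counts in all beside 39134 of Ccr9. Since no source states that counting used strand, the Ccr9 counts are uncertain in those bases.

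Itga4, Itgb7 and Itgb1 encode the alpha4 chain and its beta7 and beta1 partners. Itga4 had 315 to 434 CPM in control mice at ZT0 (median 371) and 135 to 470 CPM at ZT12 (median 255), where 4 of the 6 mice lay below every ZT0 mouse and 1 lay above all of them. In knockout mice it had 175, 328, 345 and 360 CPM at ZT0, against 346, 372, 373, 413 and 461 CPM at ZT12, the lowest value belonging to replicate 3. The log2 fold change was -0.35 with an SE of 0.23 in control and 0.38 with an SE of 0.27 in knockout mice, and the difference between them was 0.73 (95% interval -0.01 to 1.47, edgeR unadjusted p = 0.0537, adjusted p = 0.463). Without knockout ZT0 replicate 3 the knockout change was 0.19 and the difference 0.54. Of the 13978 exon bases of Itga4, 1124 overlap those of the antisense gene Cerkl, which had 320 counts in all beside 120713 of Itga4. The strand used in counting is not stated for these bases either.

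Itgb7 had 214 to 269 CPM in control mice at ZT0 (median 244) and 182 to 296 CPM at ZT12 (median 253). In knockout mice it had 184, 234, 235 and 274 CPM at ZT0, against 247, 288, 302, 324 and 328 CPM at ZT12, so that 4 of the 5 ZT12 mice were above every ZT0 mouse. The log2 fold change was 0.36 with an SE of 0.13 (95% interval 0.09 to 0.64, edgeR unadjusted p = 0.0114, adjusted p = 0.571), and 0.27 without knockout ZT0 replicate 3. Within the 3 runs of columns, each with a single mouse at 1 or both times, the ZT12 level was higher by 0.48, 0.25 and 0.15 in mean log2 CPM. At ZT12 Itgb7 was 0.25 higher in knockout than in control mice on the log2 scale (SE 0.12, edgeR adjusted p = 0.562). Itgb1 stayed within 16.6 to 30.8 CPM over the 21 mice, and its 5 comparisons had log2 fold changes from -0.09 to 0.14 with SEs of 0.11 to 0.17. Its change over time in knockout mice was -0.03 without knockout ZT0 replicate 3.

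S1pr1 and Ccr7, the receptors of exit and lymph node entry, were at the lowest levels per length. S1pr1 had 1.54 to 4.32 CPM in control mice at ZT0 (median 3.24) and 0.608 to 4.5 CPM at ZT12 (median 1.52). Knockout mice had 0.934, 1.72, 2.09 and 6.26 CPM at ZT0, against 1.46, 3.88, 4.24, 4.70 and 5.51 CPM at ZT12. The log2 fold changes over time were -0.43 with an SE of 0.50 in control and 0.51 with an SE of 0.58 in knockout mice, or 0.23 without knockout ZT0 replicate 3, 0.35 without knockout ZT12 replicate 5 and 1.3 without knockout ZT0 replicate 4. Without control ZT12 replicates 2 and 6 in turn the control change was -0.23 and -0.75. The 4 mice with the least S1pr1 were among the 5 with the least Itga4, namely control ZT12 replicates 2, 4 and 5 and knockout ZT0 replicate 3. The Cxcr4 to S1pr1 ratio per length ran from 3.97 to 192, with medians of 6.92 and 40.3 in control mice at ZT0 and ZT12 and of 30.3 and 8.13 in knockout mice, the former 17 without knockout ZT0 replicate 3.

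Ccr7 had 0.847 to 6.51 CPM in control mice at ZT0 (median 1.70) and 0.945 to 7.44 CPM at ZT12 (median 2.69). Knockout mice had 0.702, 2.00, 2.42 and 4.97 CPM at ZT0, against 1.58, 1.89, 3.45, 7.40 and 11.0 CPM at ZT12. The log2 fold changes were 0.45 with an SE of 0.61 and 0.99 with an SE of 0.71, the latter 0.89 without knockout ZT0 replicate 3, and neither was called. Single mice left out moved the control change between 0.05 (without ZT12 replicate 6) and 1.03 (without ZT0 replicate 6). The knockout change moved between 0.49 (without ZT12 replicate 4) and 1.54 (without ZT0 replicate 4), and without ZT12 replicate 5 it was 1.21.

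The genes whose log2 CPM was most like that of a member over the 21 mice were found among 10406 protein-coding genes with a mean of at least 1 CPM, by Pearson r, as a description of these libraries. Cxcr4 was most like Ackr3, the atypical second receptor of CXCL12 (r = 0.94, 1.90 to 31.3 CPM), and Frmpd2 (r = 0.94), and Cxcr3 was most like Il2rb, a chain of the interleukin 2 and 15 receptors (r = 0.92, 12.0 to 56.6 CPM), and Crybg1 (r = 0.91). Ackr3 was at 18.3 to 31.3 CPM in the 6 mice with the least Cxcr3 and at 1.90 to 5.23 CPM in the other 15, and Il2rb at 12.0 to 21.7 and at 40.1 to 56.6 CPM. Both genes were picked for their likeness to Cxcr4 or Cxcr3 in these same mice. Their separation therefore follows largely from that choice and is no independent support for a division of the mice. Itga4 was most like Atp2b1, a calcium pump, and Myo5a, a vesicle motor (both r = 0.97). S1pr1 was most like Nfatc3 and Eif4ebp2, a repressor of translation (both r = 0.92). Ccr10 was nearest to Grb7 (r = 0.89) and Senp1 (r = 0.87), Itgb1 to Cpt2 (r = 0.87) and Zfp40 (r = 0.86), Ccr9 to Snx9 (r = 0.82) and Rnft1 (r = 0.80), Itgb7 to Samhd1 (r = 0.82) and Rom1 (r = 0.80), and Ccr7 to Ccl22 (r = 0.81) and Adam8 (r = 0.78). Without knockout ZT0 replicate 3 these correlations ranged from 0.75 (Rom1) to 0.97 (Ackr3). No test stands behind these values, and the libraries share their depth and composition.

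The other genes of the same pathways were mostly not called either, and counts at an unadjusted p under 0.05 are given for the 5 comparisons together. Over all genes, 10252 of the 101280 tests (10.1%) had such a p. DESeq2 called 1073 genes in control mice against 350 called by edgeR, and its calls in these lists are to be read beside that number. Of 17 other chemokine receptors 12 were measured and edgeR called 0 in any comparison, with 2 of the 60 tests at such a p upwards and 1 downwards. Ackr3 (2.82 CPM per kilobase) and Ccr1 (0.839) were highest. Ackr3 in control mice had a log2 fold change of 2.51 with an SE of 0.73 (edgeR adjusted p = 0.095), from a mean of 2.69 CPM to one of 15.3, and was called by DESeq2. Of 13 other trafficking receptors 12 were measured, and edgeR and DESeq2 both called 0, with 0 of the 60 tests upwards and 4 downwards at an unadjusted p under 0.05. Cd69, which holds S1PR1 inside the cell, and Cd44 were highest at 64.2 and 43.1 CPM per kilobase. All 10 other integrin chains were measured and edgeR called 0, with 3 of the 50 tests upwards and 1 downwards at such a p, while DESeq2 called 1, Itgal in control mice, at a lower level at ZT12. Itgal and Itgb2, the chains of LFA-1, were highest at 40.4 and 39.9 CPM per kilobase.

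Of 12 ligand genes 10 were measured, and edgeR and DESeq2 both called 0, with 2 of the 50 tests upwards and 1 downwards at an unadjusted p under 0.05. Cxcl10, a CXCR3 ligand, was at 25.4 CPM per kilobase and Cdh1, which codes for the ligand of alphaEbeta7, at 0.783. Of the 7 genes of sphingosine phosphate metabolism edgeR called 0, with 1 of the 35 tests upwards and 3 downwards, and DESeq2 called 1, Sgpp1 in control mice. Sphk2 and Sgpl1, a kinase that makes this lipid and the lyase that breaks it down, were highest at 11.3 and 5.34 CPM per kilobase. Of 15 retinoic acid pathway genes 10 were measured and edgeR called 0, with 3 of the 50 tests upwards and 1 downwards, and DESeq2 called 1, Aldh1a2 in control mice. The receptor genes Rxrb and Rara were highest at 8.76 and 7.34 CPM per kilobase. Of the 8 transcription factors of trafficking edgeR and DESeq2 both called 0, with 1 of the 40 tests upwards and 5 downwards. Klf2, which drives S1pr1 in lymphocytes, was highest at 80.1 CPM per kilobase, and Gfi1 followed at 9.35.

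Downstream of the receptors, edgeR called 1 gene in each of 2 lists, both in control mice. Of 16 G protein and desensitisation genes, Rgs1, which limits G protein signals from chemokine receptors, rose from 11.9 to 30 CPM at ZT0 to 28.4 to 46.4 CPM at ZT12, with medians of 16.9 and 34.4. Its log2 fold change was 0.96 with an SE of 0.23 (edgeR adjusted p = 0.0414), and its adjusted p ran from 0.0202 to 0.11 when single mice were left out. DESeq2 called Rgs1 and also Rgs14 in control mice, and 4 of the 80 tests of this list had an unadjusted p under 0.05 upwards and 4 downwards. Grk2 and Gnai2, a receptor kinase and a G protein subunit, were highest in that list at 33.4 and 31.8 CPM per kilobase. Of 16 measured integrin activation genes, Dock2, which drives Rac during chemokine-led migration, fell from 94.3 to 111 CPM at ZT0 to 42.8 to 98.1 CPM at ZT12. Its log2 fold change was -0.54 with an SE of 0.14 (edgeR adjusted p = 0.0462, and 0.0101 to 0.122 with single mice left out). DESeq2 called Dock2 and also Fermt3 and Vcl in control mice, and 13 of the 80 tests had an unadjusted p under 0.05 upwards and 10 downwards. Rap1b and Rap1a were highest in that list at 67.9 and 53.8 CPM per kilobase. Neither gene was called with the dissociation list as a covariate (edgeR adjusted p = 0.236 for Rgs1 and 0.223 for Dock2). Among the marker lists, Pecam1, an adhesion molecule of endothelium and leukocytes, was the only gene that edgeR called (log2 fold change -0.51 with an SE of 0.14, edgeR adjusted p = 0.0494), in control mice. Its edgeR adjusted p was 0.00906 to 0.13 with single mice left out and 0.297 with the dissociation list as a covariate. Beside Pecam1, DESeq2 called Prdm1, Xbp1, Igha, Epcam and Apoa1 of these lists, all in control mice.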

How the data were processed

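The deposited values are raw, whole-number counts per gene that the authors did not normalize, from poly-A RNA sequenced on a NovaSeq (NEBNext Ultra kit). The aligner, counter, strand setting and build are not given in the sources used here. All 9 members have the coordinates of GENCODE M21 (GRCm38). Intestines had been stripped of epithelium and digested with collagenase D before sorting. Genes with at least 10 counts in total were kept (20256), and the 4 group means of all 21 mice were fitted by robust quasi-likelihood in edgeR 4.0.16 (R 4.3.3) with TMM factors and Benjamini-Hochberg adjustment over all genes. DESeq2 1.42.0 was an alternative. The script was tested on simulated data. Log2 CPM used a prior count of 2. Promoter sequences came from RefSeq and figures from matplotlib.

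The members and gene lists were chosen with earlier results of these data known. Named genes were the members, the called genes and the 2 highest per length of each list, the 2 genes most like each member, and Arntl and Cd79a. The genes Xist, Ddx3y, Ackr3, Itgal, Sgpp1, Aldh1a2, Rgs14, Fermt3, Vcl, Prdm1, Xbp1, Epcam, Apoa1, Il2rb, Ighm and Ighg2b are named beyond single parts of this rule or after their values were seen. No library looked like a repeat of another of its group (46 pairs, chi-square per gene 26.5 to 216). Counting error is large for Cxcr3, Ccr7 and S1pr1, and the reads carry no molecular identifiers.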

Additional observations from a re-analysis of the deposited data

Results flagged for a closer look

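In 3 of the 36 sets formed by the 9 receptors and the 4 groups, 1 mouse lay far from the others of its group by Dixon's criterion, which chance gives in about 1 in 20 sets. Ccr9 was at 72.9 CPM in control ZT12 replicate 2, where the other 5 mice had 108 to 126 CPM. Ccr7 was at 6.51 CPM in control ZT0 replicate 6, where the other 5 had 0.847 to 2.78 CPM. Cxcr4 was at 55.9 CPM in knockout ZT12 replicate 2, where the other 4 had 19.8 to 27.2 CPM.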

How the results depend on the processing

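Over 8 alternatives, 343 of the 360 fold changes of the members kept their direction and side of the threshold, 15 turned in sign, none of them called in either fit, and 2, both Cxcr4 in control mice, passed the threshold. Under DESeq2 Cxcr4 had 1.39 in control mice (members called: 1), and genes called were 1073 in control mice, 64 in knockout mice, 3 in the interaction, 5 between genotypes at ZT0 and 7 at ZT12, against 350, 0, 0, 2 and 3. At a threshold of 0.01 edgeR called 14 genes in control mice. Rgs1 and Pecam1 in control mice were not called without a count filter (edgeR adjusted p = 0.0591 and 0.0502), nor was Pecam1 with DESeq2 size factors (0.0551) or with Xist as a covariate (0.0522). Without a count filter edgeR called 1 gene in knockout mice, and Itgb1 there had -0.0054, or -0.0016 with immunoglobulin genes removed. The replicate numbers did not pair the mice (correlation of deviations -0.18 to 0.56 over 19 pairs, 6 above 0.1, 4 best with their own number). With the replicate number as a block 183 genes were called in control mice, 0 members were called in any comparison, and Itgb1 in knockout mice had -0.06, while Rgs1, Dock2 and Pecam1 in control mice had edgeR adjusted p-values of 0.052, 0.0576 and 0.0601.

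Of the alternatives chosen after seeing the data, the run of columns as a term gave 545 genes and 1 member called in control mice, knockout time changes of -0.77 for Cxcr3, 0.27 for Cxcr4 and -0.052 for Itgb1, and genotype differences of -0.017 for Ccr7 at ZT0 and -0.037 for Cxcr3 at ZT12. The dissociation covariate gave 15 genes called in control and 2 in knockout mice, time changes of 0.018 for Ccr9 and 0.069 for S1pr1 in control mice, -0.046 for Ccr7 between genotypes at ZT0, and -0.0057 for Ccr9, -0.17 for Cxcr3 and 0.077 for Cxcr4 at ZT12. With Xist as a covariate Itgb1 in knockout mice had -0.0069. The cause of these shifts was not tested.

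With single mice left out, members called stayed at 0 throughout. Genes called ranged from 31 (without control ZT0 replicate 2) to 944 (without control ZT12 replicate 1) in control mice, from 0 to 1 in knockout mice and in the interaction, from 2 to 3 between genotypes at ZT0 and from 2 to 4 at ZT12. Cxcr4 in control mice ranged from 1.13 to 1.53. The fold changes that turned in sign were Ccr9 (-0.13 to 0.029) in control mice, Cxcr3 (-0.24 to 1.24), Cxcr4 (-0.47 to 0.31) and Itgb1 (-0.062 to 0.029) in knockout mice, Ccr7 (-0.051 to 1.09) in the interaction, Ccr7 (-0.52 to 0.63), S1pr1 (-0.91 to 0.17) and Itgb7 (-0.14 to 0.037) between genotypes at ZT0, and Ccr9 (-0.034 to 0.11) at ZT12. The least Cxcr3 rests on 3 counts.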

Other observations

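The 6 mice with the least Cxcr3 and the most Cxcr4 did not overlap with the other 15 in the immunoglobulin transcripts Ighm and Ighg2b. These genes were chosen after their values were seen, and no test was made. The share of all genes that separates the same mice was not counted. Immunoglobulin genes together took 53.4% to 63.6% of the counts in the 6 mice and 51.5% to 59.1% in the other 15, ranges that overlapped. Ighm, the IgM heavy chain, was at 407 to 576 CPM in those 6 mice and at 112 to 342 CPM in the other 15. Ighg2b, a heavy chain of IgG, was at 155 to 377 CPM in the 6 and at 402 to 1520 CPM in the other 15. Of the members, Ccr10 was at 192 to 254 CPM in the 6 mice and at 124 to 192 CPM in the other 15, ranges that just overlapped. Those of the other members apart from Cxcr3 and Cxcr4 overlapped too, as did the ranges of Arntl (4.16 to 6.47 against 3.11 to 8.36 CPM) and of Fos (505 to 1420 against 135 to 779 CPM).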
